A study of Mus musculus with 7 samples.

Results

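The serpin genes read by a whole-transcript microarray were compared between the livers of 3 Trpm6-deficient and 4 control mice. Members were taken by name: a probe set (the group of probes that reads 1 transcript) belonged if the platform annotation gave it a single gene symbol starting with Serpin, and a gene with several such probe sets would have been represented by the brightest. This gave 48 genes with 1 probe set each, of 19938 genes with a single symbol and 35556 probe sets in all. By the clade letter in the symbol, 15 belong to clade A, 24 to clade B, 2 each to clades F and I, and 1 each to clades C, D, E, G and H. Genes whose probe sets carry several serpin symbols, such as those shared by the alpha-1-antitrypsin copies Serpina1a to Serpina1e, are outside this count.

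All mice were male littermates on a C57BL/6 background. Control mice carried 1 floxed Trpm6 allele (Trpm6 fl/+) and were 12 weeks (controls 1 and 2) or 13 weeks old (controls 3 and 4). In Trpm6-deficient mice (Trpm6 delta17/delta17;Sox2-Cre) both alleles lacked exon 17, and they were 12 (mouse 2) or 13 weeks old (mice 1 and 3). Trpm6 encodes a channel kinase that carries Mg2+. Sox2-Cre inherited from the father acts in the epiblast, from which the whole animal forms, so the gene was deleted in every organ and not in the liver alone. Frozen pieces of the left lobe gave total RNA, which was read on Affymetrix Mouse Gene 1.0 ST arrays, 1 per mouse. Values are log2 expression as deposited, and a log2 change is the Trpm6-deficient mean minus the control mean.

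Serpins are a family of proteins of which most inhibit serine proteases. The protease cuts an exposed reactive centre loop, the serpin folds around it, and both are trapped together. Hepatocytes secrete many clade A serpins and most of the serpins that restrain coagulation, fibrinolysis and complement in plasma, whereas clade B serpins lack a classical signal peptide and mostly act inside cells. Some members have lost inhibition and carry hormones or assist the folding of collagen instead.

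Trpm6 itself was at 5.50 to 5.53 in control and at 5.37 to 5.50 in Trpm6-deficient livers (log2 change of -0.05, SE 0.05, adjusted p = 0.882 from limma), and the exons read by its probe set were not looked up. The array medians were 6.43 to 6.48 and the lower quartiles 5.05 to 5.11. The 6 measured hepatocyte genes of a marker list had a mean level of 13.67 to 13.85 in control and 13.76 to 13.82 in Trpm6-deficient livers. Of all probe sets, 27 (0.0759%) rose and 19 (0.0534%) fell at an adjusted p of 0.1 or less, the threshold of the study's methods.

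The largest differences among the serpins were in a few clade A genes. Serpina4-ps1 was the 1 member that passed the adjusted threshold, and it fell, and 0 members passed it upwards with limma or with the methods' t-test. Limma gave 8 serpin genes an unadjusted p of 0.05 or less. Of these, 4 were higher (Serpina7, Serpina6, Serpinb1a and Serpinb8) and 4 lower (Serpina4-ps1, Serpina12, Serpina11 and Serpina9), where 3.85% of all probe sets were higher and 3.03% lower. The groups did not overlap in 4 members that were higher and 3 that were lower, against 2.94% and 2.38% of all probe sets. The median log2 change over the 48 serpin genes was 0.03 (median size 0.0808), beside 0 (median size 0.0808) over all probe sets. In bulk tissue, fewer cells of a type and less RNA per cell cannot be told apart.

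**Figure D1:**
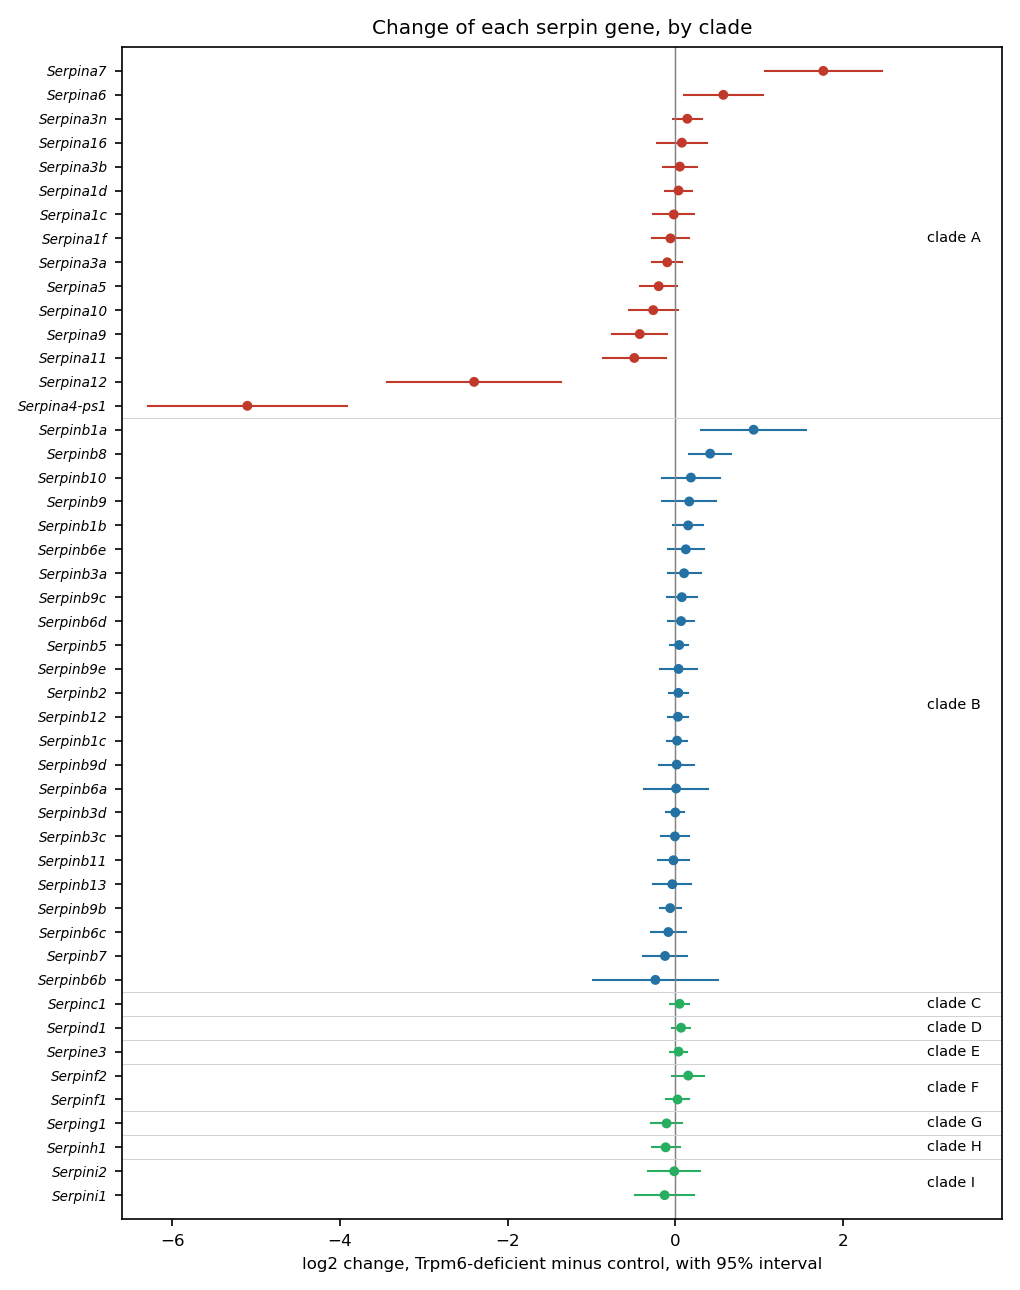
Log2 change (Trpm6-deficient minus control) of each of the 48 serpin genes on the horizontal axis, grouped by clade, with the 95% interval from limma as a bar (control, n = 4; Trpm6-deficient, n = 3). The 3 changes above 1 log2 unit in size are all in clade A, at 1.77 for Serpina7, -2.40 for Serpina12 and -5.11 for Serpina4-ps1.

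Of the 15 clade A genes, 6 had an unadjusted p of 0.05 or less (40.0%), 2 higher and 4 lower, and the median log2 change was -0.06 (median size 0.20). The signed median was -0.015 without Trpm6-deficient 2 and -0.135 without Trpm6-deficient 3. Of the 24 clade B genes 2 did (8.33%, beside 6.87% of all probe sets), both higher, and the median size was 0.07. None of the 9 genes of clades C to I did, and their log2 changes ran from -0.13 to 0.16. The clades also differed in level. A control mean below every array's lower quartile was found for 18 clade B genes and 0 clade A genes. No member that dim had an unadjusted p of 0.05 or less. The difference between clades was not tested.

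The hormone carriers of clade A were both higher in Trpm6-deficient livers. Serpina7 encodes thyroxine-binding globulin, which carries thyroid hormone in plasma and has no known inhibitory activity. Its control values were 9.98, 8.96, 9.62 and 10.01, and its Trpm6-deficient values were 11.06, 11.65 and 11.52. Every Trpm6-deficient liver lay above every control, and control 2 was the lowest of the 7. The log2 change was 1.77 (SE 0.29, 95% interval 1.07 to 2.46), a 3.40-fold difference, with an unadjusted p of 0.000661 and an adjusted p of 0.203 from limma. Serpina6 encodes corticosteroid-binding globulin, the plasma carrier of glucocorticoids. Control livers had 12.20, 12.58, 12.63 and 12.40, and Trpm6-deficient livers 13.06, 13.39 and 12.63. Trpm6-deficient 3 equalled control 3, while the other Trpm6-deficient livers were above all controls. The log2 change was 0.57 (SE 0.19, unadjusted p = 0.0236, adjusted p = 0.647 from limma).

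Serpina12 and Serpina4-ps1, which lie next to each other in the order of serpin genes along chromosome 12, had the largest negative changes of the family. Serpina12 encodes vaspin, an inhibitor of kallikrein 7 first described in visceral fat. Its values were 9.03, 9.18, 9.51 and 9.16 in control livers and 7.94, 6.16 and 6.36 in Trpm6-deficient livers. All Trpm6-deficient livers were below all controls, and Trpm6-deficient 1 stood between the controls and the other Trpm6-deficient livers. The log2 change was -2.40 (SE 0.43, 95% interval -3.43 to -1.37, unadjusted p = 0.0011, adjusted p = 0.258 from limma). Without Trpm6-deficient 1 the change was -2.96 and passed the threshold (adjusted p = 0.0195).

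Serpina4-ps1 is annotated by RefSeq as a transcribed pseudogene, related in name to the kallistatin gene of other species. Control livers had 11.13, 10.95, 11.06 and 12.10, and Trpm6-deficient livers 7.28, 5.88 and 5.45. No values overlapped, control 4 was the highest of all, and Trpm6-deficient 2 and 3 lay below the median of every array. The gene fell by 5.11 on the log2 scale (SE 0.49, 95% interval -6.29 to -3.92), which is 34.5-fold (unadjusted p = 2.98e-05, adjusted p = 0.0623 from limma). Whether the lowest values are above background was not examined, and if they are not, the change is a lower bound. The call was lost without any 1 of the controls (adjusted p of 0.177 to 0.273) and without Trpm6-deficient 2 or 3 (0.192 and 0.188), while the change stayed between -5.23 and -4.73 in these fits.

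Serpina11 and Serpina9 lie next to this pair and were also lower, by smaller amounts. Serpina11 values were 9.32, 9.08, 9.27 and 9.31 in control livers and 9.13, 8.53 and 8.61 in Trpm6-deficient livers, so Trpm6-deficient 1 lay inside the control range and the other Trpm6-deficient livers below it (log2 change of -0.49, SE 0.15, adjusted p = 0.621 from limma). Serpina9, also called centerin and known from germinal centre B cells, had 6.09, 6.05, 6.27 and 6.43 in control livers and 6.04, 5.64 and 5.68 in Trpm6-deficient livers. Its groups were apart, with 6.05 and 6.04 as their nearest values, and its control mean was below every array median (log2 change of -0.42, SE 0.14, adjusted p = 0.631 from limma).

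**Figure D2:**
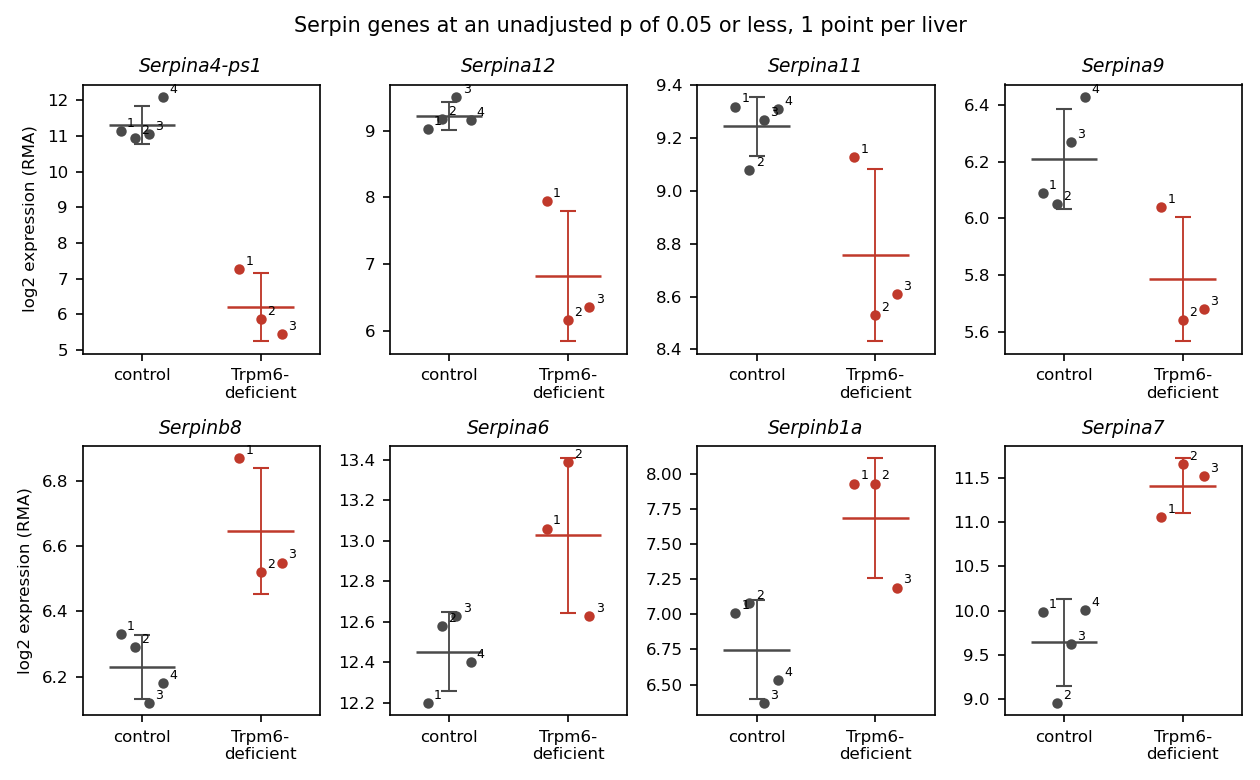
Log2 expression of the 8 serpin genes with an unadjusted p of 0.05 or less, with a numbered point for each of 4 control and 3 Trpm6-deficient livers, the mean as a line and the SD as bars; each panel has its own vertical scale, which does not start at 0. Groups overlap for Serpina11 and Serpina6 and are apart for the other 6, and Trpm6-deficient 1 is nearest to the controls for all 4 lower genes.

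Along chromosome 12, 14 clade A members stand in the order Serpina10, Serpina6, Serpina16, Serpina1f, Serpina1d, Serpina1c, Serpina11, Serpina9, Serpina12, Serpina4-ps1, Serpina5, Serpina3a, Serpina3b and Serpina3n (RefSeq, assembly GRCm38.p6). The 4 lower genes are consecutive in this order, a pattern picked out after their values were seen. Measured from the control mean, the differences of Trpm6-deficient 1, 2 and 3 were -1.28, -3.06 and -2.86 for Serpina12, and -4.03, -5.43 and -5.86 for Serpina4-ps1. For Serpina9 they were -0.17, -0.57 and -0.53. In each of these genes Trpm6-deficient 1 differed least from the controls. On either side of the 4 genes, Serpina1c had a log2 change of -0.02 and Serpina5, the protein C inhibitor gene, one of -0.20 (unadjusted p of 0.868 and 0.0724 from limma). Of 6 non-serpin genes flanking the cluster, Ppp4r4, a phosphatase subunit gene, had the smallest p (log2 change of 0.60, adjusted p = 0.385 from limma). Ifi27l2b, at 0.45, and Clmn, at -0.35, also had an unadjusted p of 0.05 or less (0.0316 and 0.0445). On chromosomes 1 and 13, which hold 12 and 13 members, 1 gene each had an unadjusted p of 0.05 or less. These are shares of 8.33% and 7.69%, beside 6.87% of all probe sets.

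**Figure D3:**
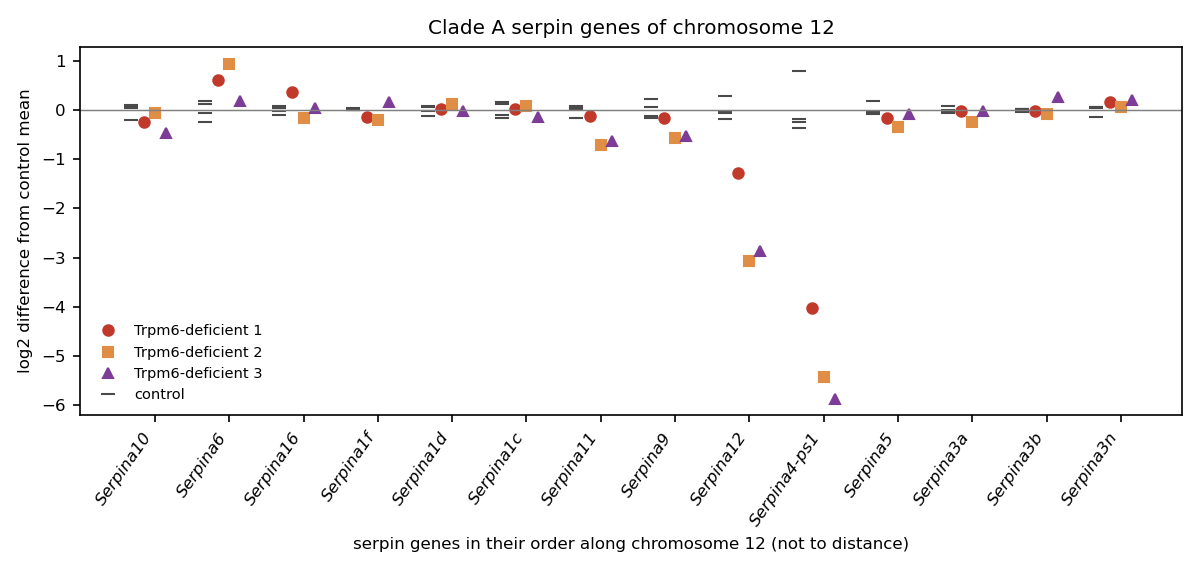
Difference of each liver from the control mean (log2 units, vertical axis) for the 14 clade A serpin genes of chromosome 12, in their order along the chromosome and not to distance; dashes are the 4 controls and symbols the 3 Trpm6-deficient livers. The run Serpina11, Serpina9, Serpina12 and Serpina4-ps1 lies below 0 in all 3 Trpm6-deficient livers, reaching -5.86 in Trpm6-deficient 3. Serpina10, Serpina5 and Serpina3a also lie below 0 in all 3, down to -0.47 for Serpina10 in Trpm6-deficient 3.

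Promoter sequence is shown for the 4 of the 8 genes above that have an entry in the RefSeq promoter table used here (GRCm38.p6), to set the upstream letters of 2 lower genes of the chromosome 12 run (with Serpina9 between them), of the higher hormone carrier and of a higher clade B gene side by side. Each is the 250 bases before the transcript start, 5′ to 3′ on the gene's strand, and Serpina11 and Serpina7 have a further start not shown. Capitals mark matches on either strand. The motif searched for STAT factors was TTCNNNGAA, and that for C/EBP factors was TTGCNNAA. The HNF1 half-site was searched as GTTAAT, and the box near many transcript starts was searched as TATAAA (named TATA here).
Serpina12, chr12:104044444-104044693, minus strand: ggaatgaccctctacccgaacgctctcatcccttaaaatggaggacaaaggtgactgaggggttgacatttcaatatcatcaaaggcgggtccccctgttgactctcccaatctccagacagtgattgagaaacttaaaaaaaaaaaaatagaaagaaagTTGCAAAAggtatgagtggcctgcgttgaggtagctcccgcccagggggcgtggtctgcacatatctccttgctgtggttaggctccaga
Serpina11, chr12:103989958-103990207, minus strand: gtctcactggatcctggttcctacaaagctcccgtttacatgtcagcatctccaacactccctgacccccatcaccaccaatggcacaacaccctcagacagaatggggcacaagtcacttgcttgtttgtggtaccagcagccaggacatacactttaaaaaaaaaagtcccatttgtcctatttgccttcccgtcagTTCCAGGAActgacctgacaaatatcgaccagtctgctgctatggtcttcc
Serpina7, chrX:139085237-139085486, minus strand: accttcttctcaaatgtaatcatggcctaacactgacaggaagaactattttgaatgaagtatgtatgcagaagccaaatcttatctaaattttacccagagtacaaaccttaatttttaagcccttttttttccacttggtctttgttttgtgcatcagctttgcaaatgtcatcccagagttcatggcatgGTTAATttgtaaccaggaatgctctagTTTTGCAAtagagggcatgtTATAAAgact
Serpinb8, chr1:107589756-107590005, plus strand: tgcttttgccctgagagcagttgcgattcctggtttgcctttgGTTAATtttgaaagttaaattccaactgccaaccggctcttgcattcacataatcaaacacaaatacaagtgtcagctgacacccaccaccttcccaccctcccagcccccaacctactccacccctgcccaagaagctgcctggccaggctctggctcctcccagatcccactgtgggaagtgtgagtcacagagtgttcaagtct
The 2 lower genes share no marked motif: Serpina12 holds a C/EBP match 90 bases before the start and Serpina11 a STAT match 51 bases before it. Serpina7 holds a TATA match 10, a C/EBP match 30 and an HNF1 half-site 57 bases before the start, and Serpinb8 an HNF1 half-site at 207. Of the promoters of all 32851 starts, 12.4% held the TATA letters, 9.56% the C/EBP letters, 7.02% the STAT letters and 6.43% the HNF1 half-site. Of 41 members with an entry, 10, 9, 4 and 6 did. A match describes letters in this window and says nothing of binding.

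The protease inhibitors of plasma differed little between the groups. Most were bright, where the highest control mean of any probe set was 14.75. Whether such bright probe sets read a change in full was not examined. Serpinc1 encodes antithrombin, the main inhibitor of thrombin, with 13.43, 13.47, 13.35 and 13.45 in control and 13.44, 13.50 and 13.49 in Trpm6-deficient livers (log2 change of 0.05, 95% interval -0.06 to 0.17, adjusted p = 0.882 from limma). Serpind1, heparin cofactor II, had log2 values of 13.10 to 13.18 in control and 13.16 to 13.24 in Trpm6-deficient livers. These groups overlapped. Serpinf2, alpha-2-antiplasmin, the inhibitor of plasmin, had 13.31, 13.22, 13.07 and 13.30 in control and 13.49, 13.32 and 13.33 in Trpm6-deficient livers, with the groups apart at 13.31 and 13.32 (log2 change of 0.16, adjusted p = 0.808). Serping1, the C1 inhibitor of complement and the contact system, had a log2 change of -0.10 (adjusted p = 0.860).

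Among clade A inhibitors, Serpina10, the protein Z-dependent inhibitor of factor Xa, had 11.45, 11.42, 11.40 and 11.14 in control and 11.10, 11.29 and 10.88 in Trpm6-deficient livers. Control 4 lay among the Trpm6-deficient values, and the log2 change was -0.26 (unadjusted p = 0.0691, adjusted p = 0.770 from limma). Serpina3n, an antichymotrypsin-like gene that responds to inflammation, had 12.80, 13.01, 13.01 and 12.99 in control and 13.12, 13.01 and 13.16 in Trpm6-deficient livers (log2 change of 0.14, adjusted p = 0.805). Serpina1c and Serpina1d, copies of the alpha-1-antitrypsin gene, had log2 changes of -0.02 and 0.04. The copies are nearly identical, so how their probes divide the signal is uncertain. The probe sets shared by 5 Serpina1 symbols had log2 changes of -0.06 and -0.10. Over these 8 plasma inhibitors the 95% intervals of the change all lay within -0.55 and 0.35, and the smallest adjusted p was 0.770. Agt, the angiotensinogen gene, is clade A member 8 by descent but is not named as a serpin. It rose from 13.13, 13.19, 13.16 and 13.11 to 13.56, 13.54 and 13.62, without overlap (log2 change of 0.43, SE 0.04, adjusted p = 0.0697 from limma).

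Clade B was mostly dim. Of its 24 genes, 18 had a control mean below the lower quartile of every array, and their log2 changes ran from -0.12 to 0.19. Serpinb1a encodes the leukocyte elastase inhibitor, which protects cells from neutrophil proteases. Control livers had 7.01, 7.08, 6.37 and 6.53, and Trpm6-deficient livers 7.93, 7.93 and 7.19. The groups were apart, with Trpm6-deficient 3 closest to the controls (log2 change of 0.94, SE 0.26, unadjusted p = 0.0101, adjusted p = 0.540 from limma). The 7 genes of a neutrophil marker list had no unadjusted p of 0.05 or less, and their summed level (log2 of summed linear values) was 8.27 to 8.41 in control and 8.33 to 8.35 in Trpm6-deficient livers, with 2 of the 7 below every lower quartile.

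Serpinb8, an intracellular inhibitor of furin-type proteases, had 6.33, 6.29, 6.12 and 6.18 in control livers and 6.87, 6.52 and 6.55 in Trpm6-deficient livers. The groups did not overlap and Trpm6-deficient 1 was the highest (log2 change of 0.42, SE 0.10, unadjusted p = 0.00594, adjusted p = 0.439 from limma). Serpinb6b, the brightest of the clade by control mean, had 7.72, 7.64, 7.38 and 6.70 in control and 7.39, 7.38 and 6.60 in Trpm6-deficient livers. Both groups held a low liver, control 4 and Trpm6-deficient 3, and the log2 change was -0.24 (SE 0.31). Without Serpinb1a and Serpinb8, the log2 changes of the other 22 clade B genes ran from -0.24 to 0.19, with a smallest unadjusted p of 0.0847.

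The members with other roles showed no difference past a threshold. Serpinh1, the collagen chaperone Hsp47 of the endoplasmic reticulum, had 7.49, 7.68, 7.49 and 7.49 in control and 7.44, 7.49 and 7.34 in Trpm6-deficient livers (log2 change of -0.11, adjusted p = 0.839 from limma). Of 8 stellate cell and fibroblast markers, 3 were higher (unadjusted p of 0.05 or less), where 6.87% of all probe sets passed in either direction. They were Acta2, Reln and Des, with log2 changes of 1.39, 0.30 and 0.28. The others were Dcn at 0.13, Col1a1 at -0.03, Col1a2 at -0.04, Col3a1 at -0.02 and Lrat at -0.21, and the list median was 0.06. The part of these markers in the value of Serpinh1 was not tested. Serpinf1, pigment epithelium-derived factor, an inhibitor of blood vessel growth, had a log2 change of 0.03, and Serpine3 one of 0.04. Serpini1, neuroserpin, an inhibitor of tissue plasminogen activator in neurons, had a control mean of 4.80, below every lower quartile, and a log2 change of -0.13. The 27 members not named by rule had log2 changes of -0.20 to 0.19, with a smallest adjusted p of 0.778.

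How the change related to the control level was also described. Over the 48 serpin genes, Spearman's rho between control mean and signed log2 change was -0.03, and between control mean and the size of the change 0.37. The signed rho had no stable sign: it ran from -0.12 (without control 3) to 0.14 (without Trpm6-deficient 3) when 1 mouse was left out, and was 0.05 without control 1. Over all probe sets rho was -0.06 with the signed change and 0.0859 with its size. Genes share the same 7 arrays and probe brightness depends also on probe affinity, so no p is given. In clade A rho with the signed change was 0.11 and in clade B 0.15. With the size of the change, rho was 0.07 in clade A and 0.42 in clade B. In all of these the control mean is also part of the change. With the mean over all 7 arrays as the level instead, rho over the 48 serpin genes was -0.0094 with the signed change and 0.37 with its size. By level, the 20 members below every lower quartile had no change above 0.19 in size, and none had an unadjusted p of 0.05 or less. Of the 8 members between this and the array medians 2 did, and of the 20 above every array median 6 did, including the 3 with changes over 1. From dim to bright the shares were 0%, 25% and 30%, beside 6.87% of all probe sets at any level. Whether the 20 dim members were detected is not known. The brightest genes were not those with the largest changes. Of the 10 with the highest control mean, 1 (Serpina6) had an unadjusted p of 0.05 or less (10%, beside 6.87% of all probe sets). The log2 changes of these 10 ran from -0.26 to 0.57.

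**Figure D4:**
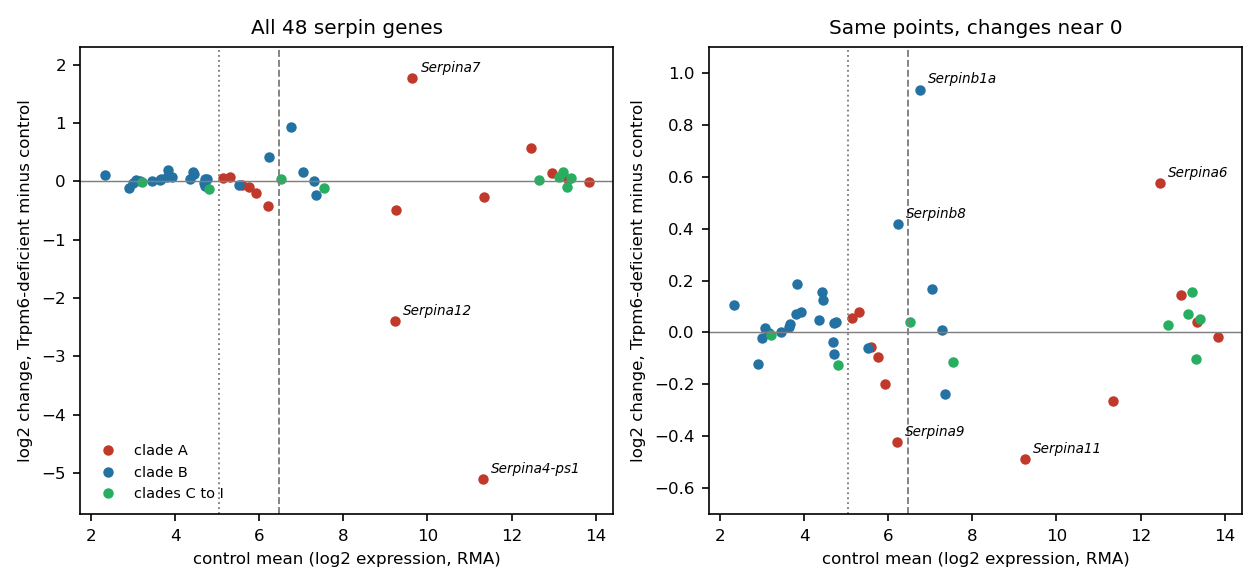
Log2 change against control mean (log2 expression) for the 48 serpin genes, 1 point per gene coloured by clade, over the full range (left) and near 0 (right); the dotted line is the lowest lower quartile and the dashed line the highest median of the 7 arrays. Changes spread little to the left of the dotted line, at most 0.19 in size, where detection is not known. The 3 largest changes lie between control means of 9.22 and 11.31.

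Genes whose products act with serpins were read from lists of partners. Of 27 measured proteases inhibited by serpins (of 31 listed), none passed the adjusted threshold. An unadjusted p of 0.05 or less was found for 2 of the 27, near the share of all probe sets (6.87%). F11, coagulation factor XI, had 10.47, 10.48, 10.26 and 10.24 in control and 9.90, 9.38 and 9.61 in Trpm6-deficient livers (log2 change of -0.73, adjusted p = 0.270 from limma), and F7, coagulation factor VII, had a log2 change of 0.29 (adjusted p = 0.439). No values of F11 overlapped. The median log2 change of the proteases was 0.01, beside 0 over all probe sets.

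Of 18 clearance receptors and cofactors, 5 had an unadjusted p of 0.05 or less, 4 higher (Vldlr, Sdc1, Asgr1 and Asgr2) and 1 lower (Pros1), beside 6.87% of all probe sets in either direction. At the adjusted threshold 1 rose: Vldlr, a lipoprotein receptor that takes up serpin-protease complexes, with 6.26, 5.95, 6.17 and 6.08 in control and 7.38, 8.27 and 7.82 in Trpm6-deficient livers (log2 change of 1.71, adjusted p = 0.0903 from limma). Its groups were well apart. Sdc1, syndecan-1, a heparan sulphate proteoglycan, had a log2 change of 0.51 (adjusted p = 0.142), and the median of the list was 0.04. None of 16 folding and export genes passed (1 at the unadjusted threshold, beside 6.87% of all probe sets, median -0.07), with Mcfd2, a cargo receptor subunit, at 0.19. None of 17 measured regulators of hepatic serpin genes passed (of 20 listed, 2 at the unadjusted threshold, beside 6.87% of all probe sets, median -0.10). Esr1, an oestrogen receptor gene, had a log2 change of 0.63 (adjusted p = 0.232 from limma) and Cebpa, a C/EBP factor gene, one of -0.42 (adjusted p = 0.603).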

How the data were processed

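Per the labels, total RNA of 7 livers was hybridised to 1 array each. The authors corrected the background, normalized and summarized probes by RMA (Expression Console 1.4.0) and deposited log2 values with 2 decimals; no detection calls, counts or scan dates were used here, and the genome build behind the probe sets is not given in the sources used here. Groups came from the sample titles.

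The log2 values were fitted with limma 3.58.1 (R 4.3.3; lmFit and eBayes, no covariate) over all 35556 probe sets and adjusted by Benjamini and Hochberg, as in the study's methods. Unadjusted p-values come from the same fit. The fit was also run on simulated data with known changes added, as a check of the code and not of the calls made here. P-values set the difference between groups against the spread between mice, which limma draws towards that of all probe sets. The small number of arrays limits their precision. The members and the gene lists were chosen with earlier results of these data known, so no test was run over the list. Of the probe sets, 21789 have 1 symbol, 1621 several and 12146 none, and serpins without a single-symbol probe set were not analysed here.

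Named genes were those with an adjusted p of 0.1 or less or an unadjusted p of 0.05 or less, the brightest of each clade, the 10 with the highest control mean, and 20 fixed examples of known role, of which 14 are members (21 genes in all). Partner lists added any called gene and up to 3 with the smallest p. Kupffer, endothelial, cholangiocyte, lymphocyte, erythroid, mesothelial and acinar marker lists were read in the same way. Alternatives were leaving out each mouse, age, the replicate number as a block, quantile normalization, centring and a filter on dim probe sets. Further ones were a variance trend, gene means, a plain t-test with pooled variance and a stricter threshold. The plain t-test was adjusted in the same way and is not the test behind the study's calls, which came from limma.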

Additional observations from a re-analysis of the deposited data

Results flagged for a closer look

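Over the 21 named serpin genes, the 4 control values were examined for a single value far from the others (Dixon's ratio above its 95% critical value). Chance marks about 1 in 20 groups of independent, unrounded values, and 6 of 21 genes were marked. The values here are rounded to 2 decimals and all genes share the same arrays, so the 2 rates cannot be compared. Control 4 was apart in 3 of them: Serpina10 at 11.14 with the other controls at 11.40 to 11.45, Serpina4-ps1 at 12.10 with the others at 10.95 to 11.13, and Serpinf1 at 12.71 with the others at 12.63 to 12.64. Serpina3n was at 12.80 in control 1 and at 12.99 to 13.01 in the others. Serpinh1 was at 7.68 in control 2 and at 7.49 in all others, and Serpini1 was at 5.0 in control 3 and at 4.72 to 4.74 in the others.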

How the results depend on the processing

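The count of serpin genes called lower was 1, and ranged from 0 to 2 when 1 mouse was left out: 2 (Serpina12 and Serpina4-ps1) without Trpm6-deficient 1, and 0 without any other mouse. It was 0 with age as a covariate, with the plain t-test and at an adjusted p of 0.05 or less. The cause of these losses was not tested. The same call was kept under quantile normalization, centring, the filter on dim probe sets, the variance trend and gene means. No serpin gene was called higher in any of these fits. Serpina4-ps1 kept its direction throughout (-5.65 to -4.73), with adjusted p from 0.0318 to 0.388 (0.131 with age). The median log2 change of clade B (0.04) was 0.0161 with quantile normalization, 0.0225 with centring and 0.0892 with the filter, and 0.0263 to 0.0638 with 1 mouse left out, and that of clade A (-0.06) was -0.135 to -0.015 with 1 mouse left out. The rank correlation of control level and change (-0.03) was -0.115 to 0.136 with 1 mouse left out. With 1 mouse left out, log2 changes near 0 turned sign for Serpina1c (-0.07 to 0.0475), Serpina1d (-0.0025 to 0.0725), Serpinb6b (-0.457 to 0.025), Serpinf1 (-0.02 to 0.075) and Serpini1 (-0.25 to 0.03), and also for Serpina1c with age (0.018) and Serpinf1 with quantile normalization (-0.0167). Same-numbered mice of the groups correlated at 0.0878 to 0.335 in their deviations over 3 pairs, not all over 0.1. Each of controls 1, 2 and 3 correlated most with its same-numbered mouse, and at -0.245 to 0.0442 with the others. Trpm6-deficient 3 was nearer to control 4 (0.226) than to control 3. Whether the numbers pair the mice is thus not settled, and the reported fit did not pair them. With the replicate number as a block, the count of serpin genes called lower was 0. Over all probe sets, 27 rose and 19 fell in the reported fit, and 39 and 31 with the filter. The counts were 5 and 3 with age or with the plain t-test, and 1 and 0 with the block. With 1 mouse left out, 4 to 33 rose and 2 to 36 fell. Signal over background was not used here, so whether the 20 of 48 members below every lower quartile were detected is not known.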

Other observations

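Marker lists of other liver cell types were read beside the serpins. Alas2, an enzyme of haem synthesis and the one erythroid marker measured of 4, was at 10.72, 11.17, 11.07 and 10.98 in control and at 9.95, 8.85 and 9.19 in Trpm6-deficient livers (log2 change of -1.66, adjusted p = 0.192 from limma). Of 7 Kupffer cell, 6 sinusoidal endothelial, 8 lymphocyte and 3 mesothelial markers measured, none had an unadjusted p of 0.05 or less. Over all probe sets 6.87% had one. Of 4 cholangiocyte markers 1 was higher (Krt19, log2 change of 0.33), and of 2 acinar pancreas markers 1 was lower, with a mean level of 7.67 in control 4 and 6.64 to 6.81 in the other livers. The Kupffer cell list had a mean level of 8.25 in control 1 and 9.004 to 9.18 in the other controls, with the Trpm6-deficient livers between, at 8.55 to 8.75. The part of these cell types in the serpin values was not tested.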
